A study of Mus musculus with 4 samples.

Results

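The genes induced by type I interferon were followed in conventional dendritic cells of type 1 (cDC1) from mice. These cells present antigens taken from dead cells to CD8 T cells. A list of 36 symbols defined the set, and a probe set belonged to it where the array annotation gave it one of those symbols. The annotation listed 40 such probe sets, covering 35 of the 36 genes, among 41345 probe sets in all. Of the 36 genes, 33 had a probe set to themselves, and all 33 reached a log2 signal of 5.43 on 1 array or more. This limit is the median over every value in the table. They are 33 of 11060 named genes that reached this level, and counts below refer to these genes. Oas1a was read only by a probe set shared with Oas1g, and Dtx3l only by a probe set shared with Parp9. Ifi44 was not analysed here.

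The arrays came from XCR1-deficient (KO) cells with LPS and XCL1, KO cells with LPS, wild-type (WT) cells with LPS and XCL1, and WT cells with LPS, at 1 array per group. All were from C57BL/6 mice of 10 weeks, given as female. LPS, which engages TLR4, and the recombinant mouse chemokine XCL1, the ligand of XCR1, were each used at 100 ng/ml. Every group had LPS, so no array shows these genes before stimulation, and all differences below are between LPS-treated cells. How the deletion was made, the tissue of origin and the number of mice per array are not given in the labels. With 1 array per group there is no replicate spread, no test and no p-value for any difference, and the number of arrays limits the precision. Higher and lower below mean a gap of 1.5-fold or more between 2 single arrays, which is 0.58 on the log2 scale.

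Type I interferons act through a shared receptor whose kinases activate transcription factors, STAT2 with IRF9 among them, that bind the interferon-stimulated response element (ISRE) in the promoters of target genes. The targets include sensors of viral nucleic acid, enzymes that block viral RNA and protein synthesis, and regulators that amplify or end the response. In dendritic cells LPS induces them through the adaptor TRIF and IRF3, and interferon released by the cells then sustains them. Many of the same genes also respond to interferon-gamma.

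Several features of the arrays moved with genotype. The log2 signal of Xcr1 was 5.11 in KO and 7.19 in WT with LPS and XCL1, and 5.54 in KO and 6.42 in WT with LPS. Xist, which is transcribed from the inactive X chromosome of female cells, was at 4.57 and 4.64 on the KO arrays and at 7.91 and 7.95 on the WT arrays. The Y-linked genes Eif2s3y, Kdm5d and Uty had log2 signals between 7.01 and 8.89 on the 4 arrays, and the largest of their genotype differences was 0.18. Low Xist on the KO arrays and Y-linked signals on all 4 arrays do not match the label of female mice, and X-linked homologues of the Y-linked genes, which such probes may also read, were not separated. The array names carry 2 number prefixes, and the genotypes share 0 of them, so genotype, sex of the cells and anything the prefix marks cannot be told apart.

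Markers of some other cells differed between the genotypes as well. For scale, 43.1% of all genes were above 0 in KO minus WT with LPS and XCL1, and 39.8% with LPS. All 10 measured B cell markers were below 0 in KO minus WT, with medians of -0.45 with LPS and XCL1 and -0.40 with LPS. Their mean log2 signal was 8.03 on both KO arrays, against 8.57 and 8.53 on the WT arrays, and none lay under the limit on every array. Of 10 T and NK cell markers, 8 and 9 were below 0, at medians of -0.30 and -0.40. In each pair 2 of them were lower in KO. Il7r went the other way, at 0.34 with LPS and XCL1 and higher with LPS, at 0.62. Plasmacytoid DC markers, from cells known for making type I interferon, had medians of -0.14 in both pairs. Of these 11 markers 7 and 8 were below 0, and 4 and 3 were above 0, near the share of all genes. Siglech was at -0.57 and -0.52. Klk1 (0.47 and 0.55), Tlr9 (0.36 and 0.39) and Tcf4 (0.31 and 0.16) went the other way. Neutrophil markers were at 0.32 and 0.21 (8 of 9 above 0 in each pair), with mean log2 signals of 7.34 and 7.20 in KO against 6.90 and 6.95 in WT and with Ly6g and Retnlg under the limit on every array. The 3 red cell markers past the limit were all higher in KO, at medians of 1.29 in both pairs, with Klf1 and Epor under the limit on every array. The 14 macrophage and monocyte markers had medians of 0.15 and 0.14 (9 and 10 above 0), and 2 and 1 of them were higher in KO. Among those was Fcgr1, at 1.19 and 1.00. The 13 cDC1 markers had medians of -0.04 and -0.03, with mean log2 signals of 8.87 and 8.88 in KO and 9.07 and 8.99 in WT, while Itgae, which encodes CD103, lay under the limit on every array. This list includes Xcr1, the deleted gene, which lowers the KO means. At -2.08 and -0.87, Xcr1 was the 1 gene of the list called lower in each pair. How far cell makeup took part in the interferon gene differences was not tested. In bulk RNA, fewer cells of a type and less RNA per cell cannot be told apart.

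The interferon-stimulated genes gave stronger signals on the KO arrays than on the WT arrays. Each of the 33 genes was above 0 in KO minus WT with LPS and XCL1, and each was above 0 with LPS, whereas 43.1% and 39.8% of all genes were, and 48.5% and 43.0% of those with a mean log2 signal of at least 8. Both KO arrays lay above both WT arrays for 31 of the 33 genes, and for 18.9% of all genes. The exceptions were Irf9 and Bst2. The shifts were small, with a median log2 difference of 0.37 with LPS and XCL1, where the median of all genes was -0.04, and of 0.30 with LPS, where it was -0.05. The quartiles of the set were 0.25 and 0.49 with LPS and XCL1, and 0.19 and 0.39 with LPS.

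At 1.5-fold, 6 of the 33 genes (18.2%) were higher in KO with LPS and XCL1, against a background of 1.66% of all genes. With LPS alone 3 of the 33 (9.09%) were higher, against a background of 1.0%. No gene of the set was lower in either pair, where 1.8% and 1.0% of all genes were. Cmpk2 and Mx2 were higher in both pairs, a pattern shown by 0.407% of all genes. Because 31 of the 33 genes are bright, with a mean log2 signal of at least 8, the 3094 genes of that brightness are a second background. Of these, 1.49% were higher with LPS and XCL1 and 0.679% with LPS, and in 25.8% both KO arrays exceeded both WT arrays. Lower were 1.0% of them with LPS and XCL1 and 0.323% with LPS. For scale, probe sets of the same gene disagreed with an SD of 0.23 with LPS and XCL1 and 0.22 with LPS, over 443 genes with several probe sets. This SD describes the array and not the spread between mice.

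**Figure D1:**
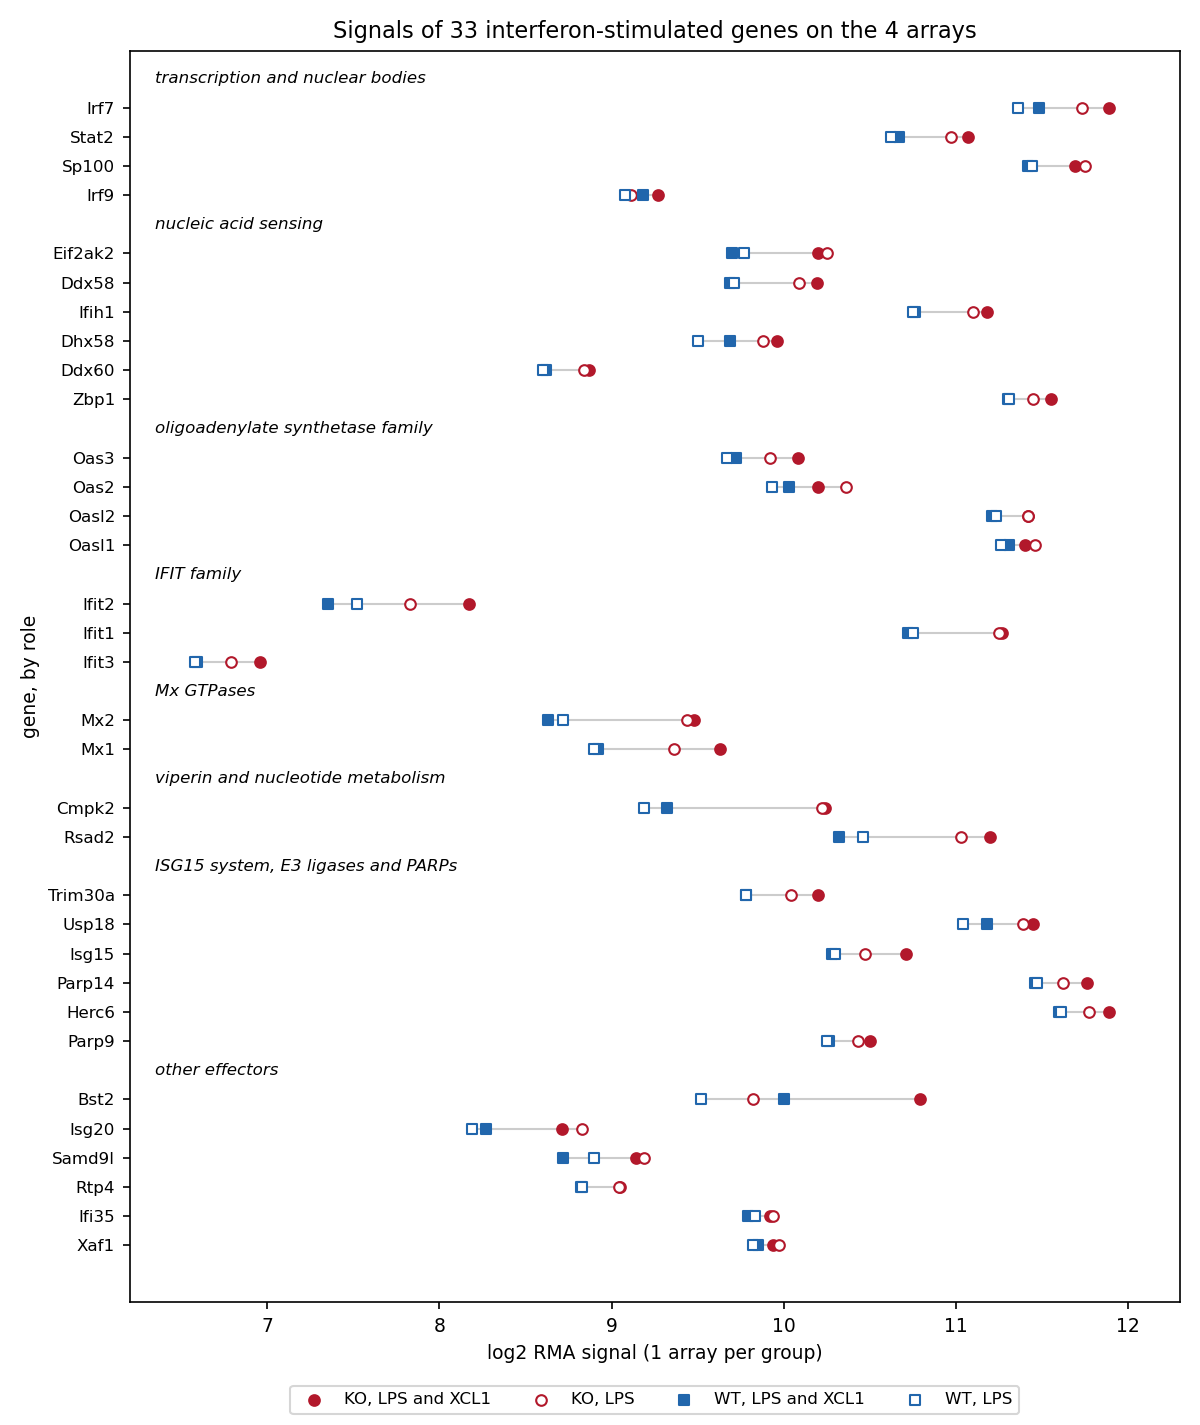
Log2 RMA signal (x axis) of the 33 interferon-stimulated genes, grouped by role, with 1 point for each of the 4 arrays (circles KO, squares WT, filled with LPS and XCL1, open with LPS). The circles lie to the right of the squares in every row but those of Irf9 and Bst2. Positions of different genes along the axis are not comparable.

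The signalling genes of the set moved modestly. Irf7, the factor that amplifies interferon production, had log2 signals of 11.89 in KO and 11.48 in WT with LPS and XCL1, and of 11.73 in KO and 11.36 in WT with LPS. Stat2 gave 11.07 in KO and 10.67 in WT with LPS and XCL1, and 10.97 in KO and 10.62 in WT with LPS. Both genes were thus above WT by 0.35 to 0.40 on the log2 scale, short of 1.5-fold. Irf9, which encodes the partner of STAT2, was the gene of the set with the smallest mean difference, at 9.27 in KO and 9.18 in WT with LPS and XCL1, and at 9.11 in KO and 9.08 in WT with LPS. Its KO array with LPS lay under its WT array with LPS and XCL1. Sp100, a component of nuclear bodies, differed by 0.27 and 0.32.

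Sensors of foreign nucleic acid were all above WT, and none reached 1.5-fold. Eif2ak2 encodes PKR, the kinase that halts translation on sensing double-stranded RNA. Its log2 signals were 10.20 in KO and 9.70 in WT with LPS and XCL1, and 10.25 in KO and 9.77 in WT with LPS, so it differed by nearly the same amount in both pairs (0.50 and 0.48). Ddx58, the RNA sensor RIG-I, gave 10.19 in KO and 9.69 in WT with LPS and XCL1, and 10.09 in KO and 9.71 in WT with LPS. Differences of Ifih1, the sensor MDA5, were 0.42 and 0.35, and those of Dhx58, their regulator LGP2, 0.26 and 0.39. The helicase gene Ddx60 was at 0.25 and 0.24, and Zbp1, a sensor of Z-form nucleic acid that can trigger necroptosis, at 0.26 and 0.14.

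Values within one effector family varied, and single arrays cannot tell this from measurement noise. The oligoadenylate synthetase family includes enzymes that make the messenger that activates RNase L. KO minus WT values of the family ran from 0.09 to 0.37 with LPS and XCL1 and from 0.19 to 0.43 with LPS. For scale, the SD between probe sets of a gene was 0.23 and 0.22 in these pairs. Oas2 had the larger value with LPS (0.43 against 0.17), and Oas3 with LPS and XCL1 (0.37 against 0.25). Oasl1 was among the genes with the smallest differences, at log2 signals of 11.40 in KO and 11.31 in WT with LPS and XCL1, and of 11.46 in KO and 11.26 in WT with LPS. Oasl2 differed by 0.21 and 0.19. The probe set shared by Oas1a and Oas1g was below 0 in both pairs, at -0.07 and -0.11, and so departed from the genes with a probe set of their own.

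The IFIT family includes IFIT1, which binds viral RNA that lacks the cell's own cap modifications. Ifit1 had log2 signals of 11.27 in KO and 10.72 in WT with LPS and XCL1, and of 11.25 in KO and 10.75 in WT with LPS. That gap was about the same in both pairs (0.55 and 0.51) and just short of 1.5-fold. Ifit2 gave 8.17 in KO and 7.35 in WT with LPS and XCL1, and 7.83 in KO and 7.52 in WT with LPS. It was 1.76-fold higher with LPS and XCL1, and 1.24-fold apart with LPS. Ifit3 differed by 0.37 and 0.22.

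By the mean of both pairs, the largest differences were those of the Mx genes and of a pair of neighbours on chromosome 12. Mx proteins are GTPases that trap viral components, and the RefSeq table for the C57BL/6J assembly lists both mouse genes as transcribed pseudogenes, so these signals report RNA only. Mx2 had log2 signals of 9.48 in KO and 8.63 in WT with LPS and XCL1, and of 9.44 in KO and 8.72 in WT with LPS, which is 1.80-fold and 1.65-fold higher. Mx1 gave 9.63 in KO and 8.92 in WT with LPS and XCL1, and 9.36 in KO and 8.90 in WT with LPS. It was 1.63-fold higher with LPS and XCL1, and its log2 difference of 0.46 with LPS missed the threshold.

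Cmpk2, a mitochondrial nucleotide kinase, showed the largest mean difference of the set. Its log2 signals were 10.24 in KO and 9.32 in WT with LPS and XCL1, and 10.22 in KO and 9.19 in WT with LPS. It was 1.90-fold and 2.05-fold higher, which placed it 35th and 13th from the top of the 11060 genes. Rsad2 encodes viperin, an enzyme that turns CTP into a chain terminator of viral polymerases, and its gene lies beside Cmpk2. It gave 11.20 in KO and 10.32 in WT with LPS and XCL1, and 11.03 in KO and 10.46 in WT with LPS. It was 1.84-fold higher with LPS and XCL1, and 1.49-fold apart, just under the threshold, with LPS.

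Genes of the ISG15 system and its relatives were above WT by little. Isg15, the ubiquitin-like modifier itself, had log2 signals of 10.71 in KO and 10.28 in WT with LPS and XCL1, and of 10.47 in KO and 10.30 in WT with LPS. Usp18, which removes ISG15 and damps receptor signalling, differed by 0.26 and 0.35, and Herc6, the mouse ISG15 ligase, by 0.29 and 0.15. Trim30a, a mouse inhibitor of Toll-like receptor signalling, was at 0.43 and 0.25. Parp9 was at 0.24 and 0.17 and Parp14 at 0.30 and 0.15, and the probe set shared by Parp9 and its partner Dtx3l at 0.15 and 0.10. No gene of this group reached 1.5-fold.

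The remaining effectors varied widely. Isg20, an RNA exonuclease, had log2 signals of 8.71 in KO and 8.27 in WT with LPS and XCL1, and of 8.83 in KO and 8.19 in WT with LPS, where it was 1.55-fold higher. Samd9l, a restriction factor of poxviruses, differed by 0.42 and 0.29, and the chaperone gene Rtp4 by 0.23 and 0.21. At the low end, Ifi35 gave 9.92 in KO and 9.79 in WT with LPS and XCL1, and 9.94 in KO and 9.83 in WT with LPS. Xaf1, which promotes apoptosis, gave 9.94 in KO and 9.85 in WT with LPS and XCL1, and 9.97 in KO and 9.82 in WT with LPS. Both stayed within 0.15 of WT on the log2 scale in each pair.

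**Figure D2:**
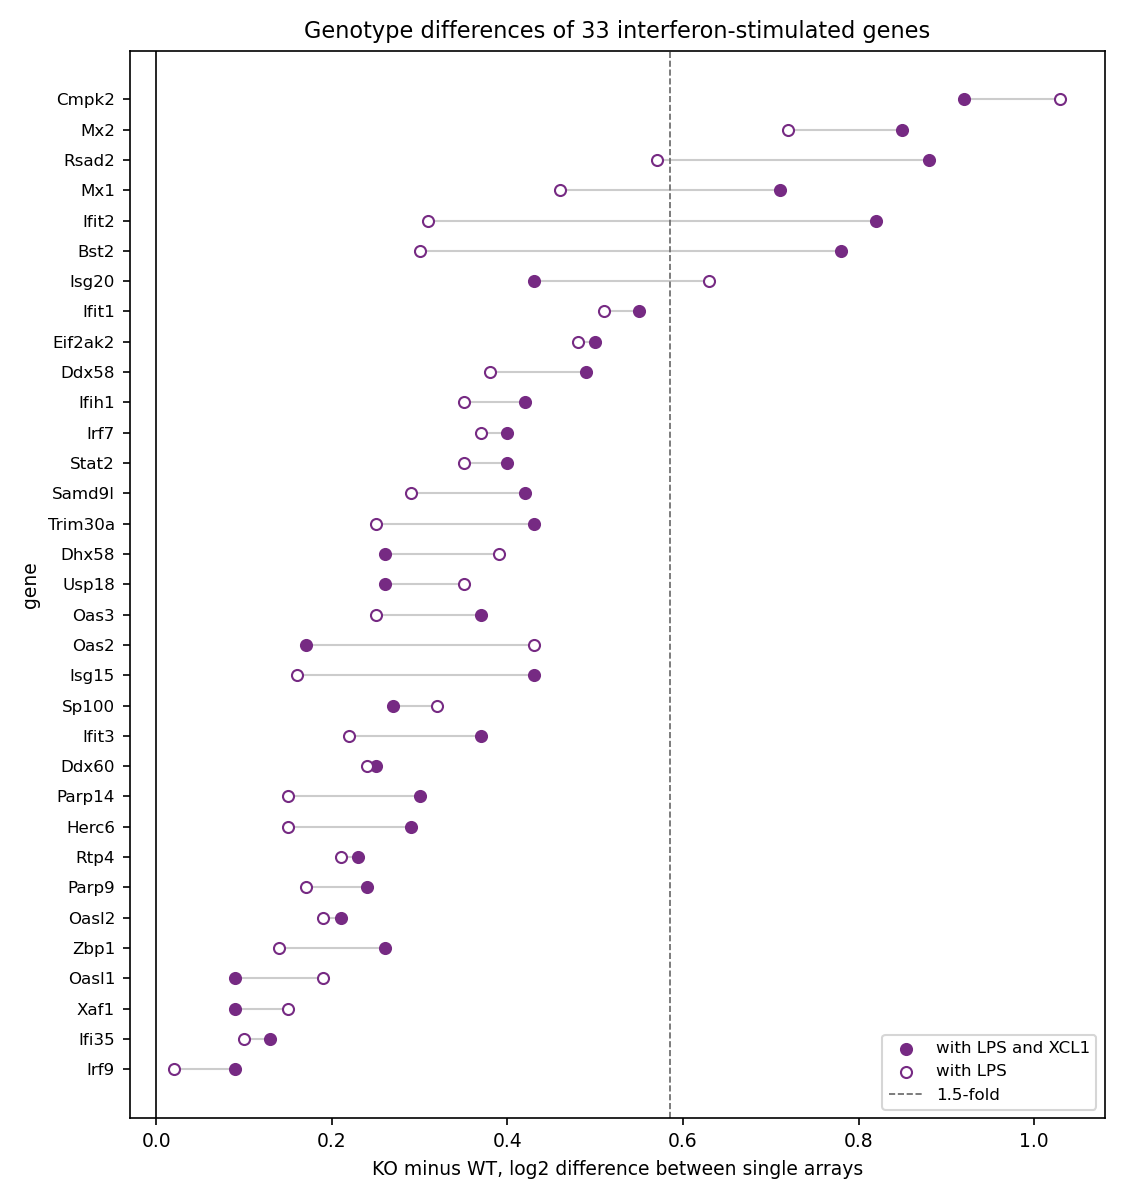
KO minus WT as a log2 difference between single arrays (x axis) for each of the 33 genes, ordered by the mean of both pairs (filled with LPS and XCL1, open with LPS), with the dashed line at 1.5-fold. All points lie above 0, from 0.02 for Irf9 with LPS to 1.03 for Cmpk2 with LPS, and Cmpk2 and Mx2 have both points past the line.

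Across the 33 genes the differences in the 2 genotype pairs were related, with Pearson's r of 0.722 and Spearman's rho of 0.686. These pairs share no array, but both arrays of a genotype may come from the same mice or preparation, so the relation is no repeat across mice. Brightness was only weakly related to the mean genotype difference (r of -0.202, rho of -0.22). Over all 11060 genes r between the pairs was 0.528. These values are across genes, which are not independent replicates.

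**Figure D3:**
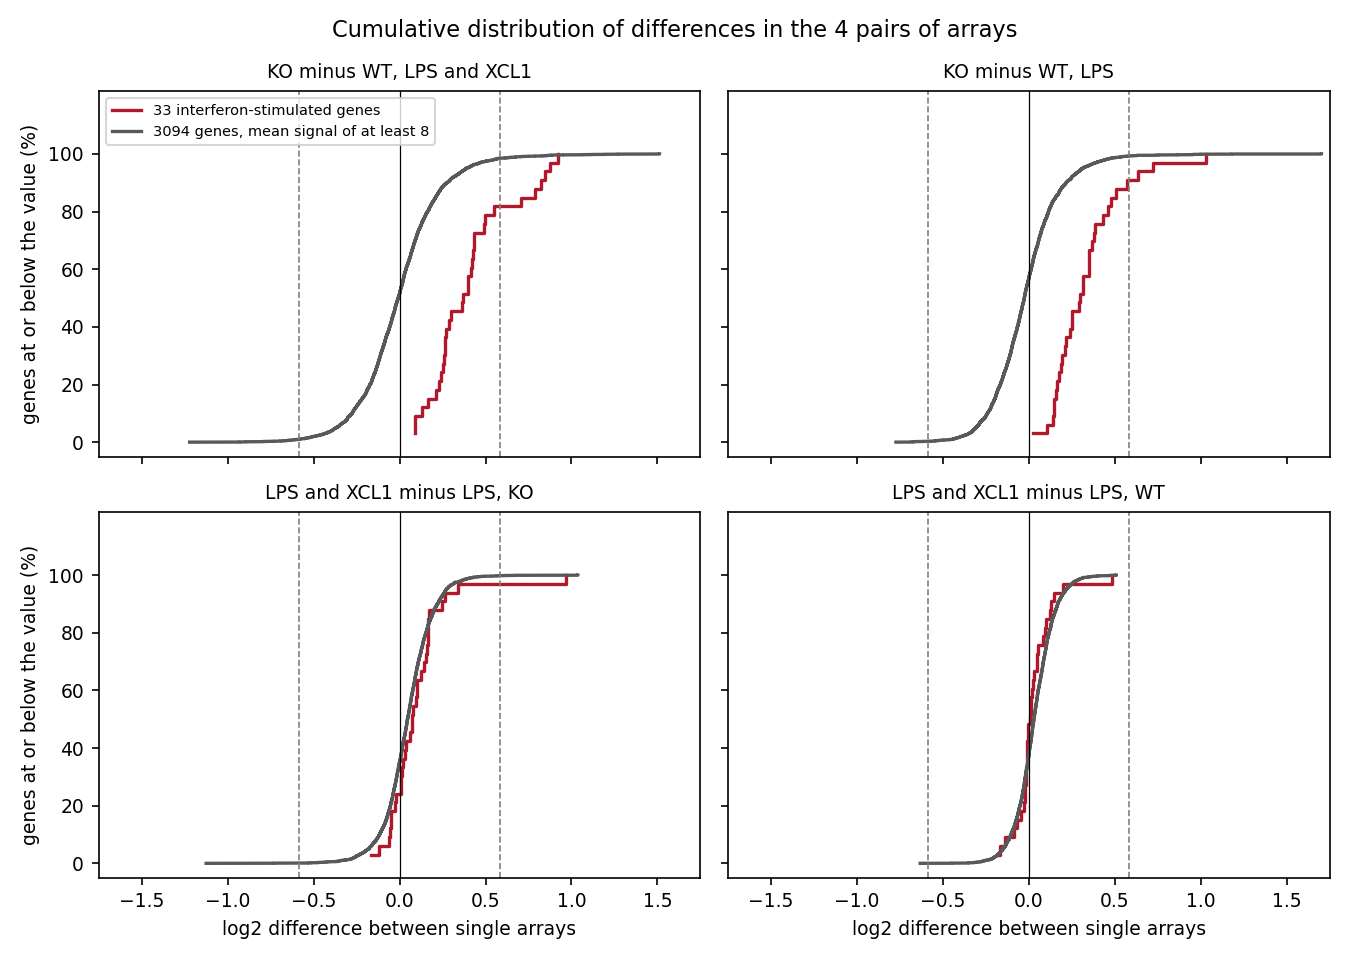
Cumulative share of genes (y axis, percent) at or below a log2 difference (x axis) in each of the 4 pairs of arrays, for the 33 interferon-stimulated genes and for the 3094 genes with a mean signal of at least 8, with dashed lines at 1.5-fold. In both genotype panels the curve of the set lies to the right, starting above 0, and in both XCL1 panels the curves run close together.

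Other genes of the interferon pathway were read as lists, and the level at which the response differed was not tested. A list of 75 further interferon-stimulated genes had 66 past the limit. Of these 58 were above 0 in each pair, 9 were higher with LPS and XCL1 and 4 with LPS, 0 were lower, and the median was 0.25 in both pairs. The largest mean differences belonged to Slfn4 of the Schlafen family (1.06 and 0.87), Trim30d (1.31 and 0.41), Phf11d (0.88 and 0.60) and Tnfsf10, which encodes the death ligand TRAIL (0.75 and 0.70). Genes induced mainly by interferon-gamma had medians of 0.51 and 0.36 over 17 genes, with 6 and 3 of them higher. Higher in both pairs were the Fc receptor gene Fcgr1 (1.19 and 1.00), Ido1, which degrades tryptophan (1.27 and 0.85), and Nos2, the inducible nitric oxide synthase (0.85 and 1.04). Fcgr1 is also among the macrophage and monocyte markers above. The guanylate-binding protein gene Gbp8 was higher with LPS and XCL1 (0.95) and short of 1.5-fold with LPS (0.36). The difference between the lists was not tested.

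Upstream genes outside the set did not shift as a group. Of 14 genes for interferon receptors, JAK-STAT signalling and its feedback, none reached 1.5-fold and 6 were above 0 in each pair, with medians of -0.04 and -0.07. Ifnar1 and Ifnar2, the chains of the type I receptor, differed by -0.07 and 0.13 with LPS and XCL1 and by 0.01 and -0.07 with LPS. Irf2 had the largest mean difference of this list (0.34 and 0.39), followed by Ifngr1, a chain of the interferon-gamma receptor (-0.44 and -0.25). Of 12 measured genes of TLR4 and TRIF signalling and nucleic acid sensing, Tlr4, the LPS receptor, was under the limit on every array, at log2 signals of 4.71 and 4.70 in KO and 4.89 and 4.94 in WT. The other 11 had medians of 0.04 and -0.03, with 6 and 4 above 0. The largest mean differences were those of Tlr9 (0.36 and 0.39), the adaptor genes Myd88 (0.42 and 0.33) and Ticam2 (-0.29 and -0.27), and Tlr3 (-0.18 and -0.28). Ly96, the TLR4 partner MD-2, had the lowest value of the list with LPS and XCL1, at -0.54, and was at 0.14 with LPS.

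Many interferon genes gave signals under the limit. Ifnb1, the first interferon made after TLR4, was under the limit on all 4 arrays, with log2 signals of 3.69 and 3.82 in KO and 3.79 and 3.79 in WT. Of 19 interferon genes measured, 11 were under the limit everywhere, and the other 8, which include Ifng and the lambda genes Ifnl2 and Ifnl3, had medians of 0.08 and 0.04. Ifna1 had log2 signals of 7.86 and 7.73 in KO and 7.38 and 7.55 in WT (LPS and XCL1, then LPS), and differed by 0.47 and 0.18. Ifna4 gave 6.87 and 7.95 in KO and 7.45 and 7.91 in WT in the same order, and differed by -0.58 and 0.04. Ifna14 differed by 0.45 and 0.16. The Ifna genes are near-identical copies, and how far their probes read each other is uncertain. Ifng was the 1 interferon gene called higher in KO, at log2 signals of 9.20 in KO and 8.05 in WT with LPS and XCL1, and of 9.21 in KO and 8.26 in WT with LPS.

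**Figure D4:**
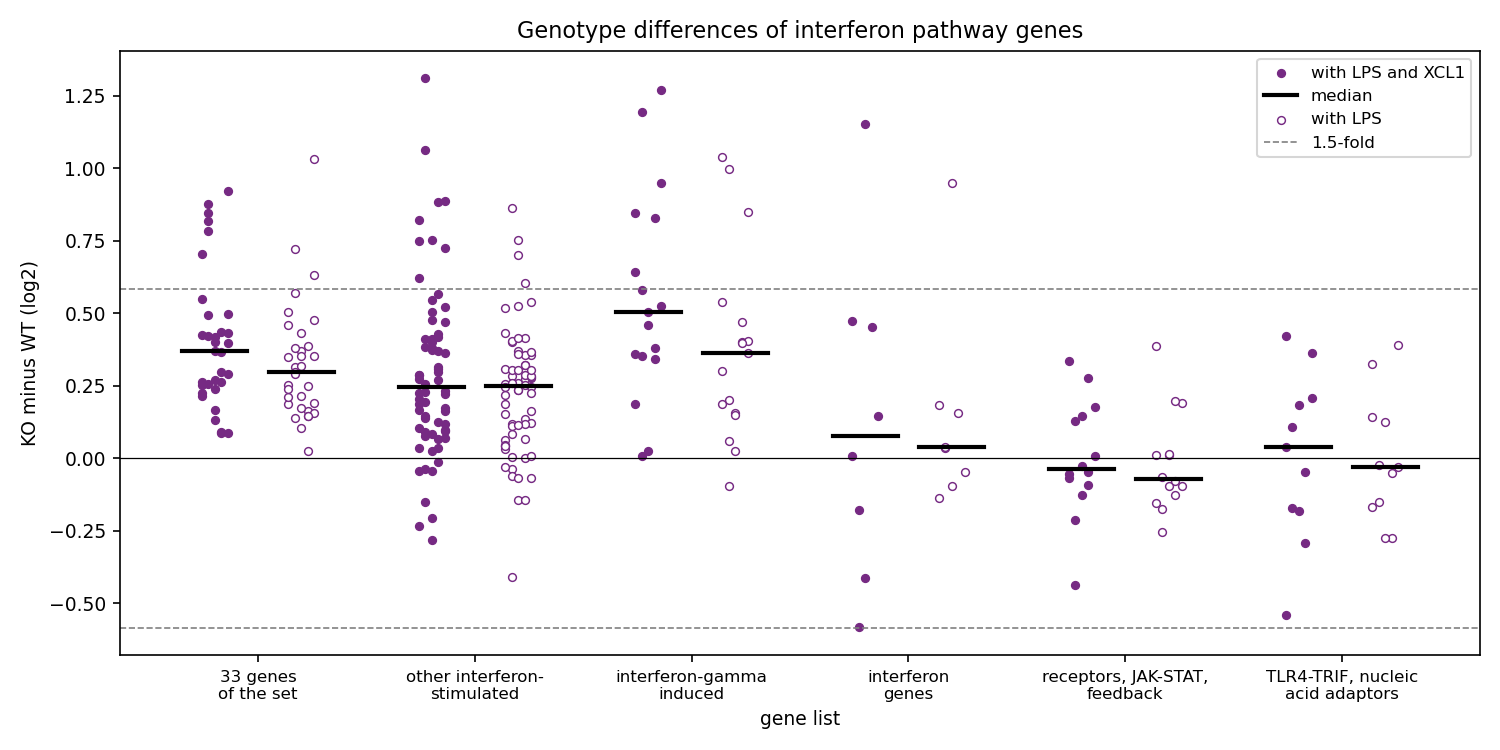
KO minus WT as a log2 difference (y axis) for genes of 6 interferon pathway lists, 1 point per gene past the signal limit, filled with LPS and XCL1 and open with LPS, with bars at the medians and dashed lines at 1.5-fold. The medians are 0.37 and 0.30 for the set of 33, 0.25 and 0.25 for other interferon-stimulated genes and 0.51 and 0.36 for genes induced mainly by interferon-gamma, and near 0 for the other lists.

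With XCL1 added to LPS, the genes of the set had small differences, with the exception of Bst2. In KO cells 25 of the 33 genes (75.8%) were above 0 in LPS and XCL1 minus LPS, and in WT cells 17 (51.5%) were, where 59.7% and 58.3% of all genes were (65.0% and 62.6% of the bright genes). In both at the same time 13 of the 33 were, against 37.2% of all genes and 42.5% of the bright genes. The medians were 0.07 in KO and 0.01 in WT, beside 0.04 and 0.03 over all genes. At 1.5-fold, 1 gene of the set was higher in KO, where the background was 0.47% of all genes, and 0 in WT, where it was 0.226%. None was lower, against 0.542% and 0.335% of all genes (0.129% of the bright genes in KO and 0.0323% in WT).

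The called gene was Bst2, which encodes tetherin, a membrane protein that holds budding virions and that also marks plasmacytoid DCs in mice. Its log2 signal was 10.79 with LPS and XCL1 and 9.82 with LPS in KO, and 10.00 with LPS and XCL1 and 9.52 with LPS in WT. Between genotypes it was 1.72-fold higher in KO with LPS and XCL1 and 1.23-fold apart with LPS, and its KO array with LPS lay under its WT array with LPS and XCL1. XCL1 went with a 1.96-fold higher signal in KO, 4th from the top of all genes, and with a 1.40-fold one in WT, 84th from the top. Other plasmacytoid DC markers had medians of -0.01 in KO and 0.02 in WT (5 and 6 of 11 above 0), and Siglech was at -0.13 and -0.08. Ly6d was the 1 marker of that list called, and it was lower with XCL1 in KO (-1.12, with -0.25 in WT). The next largest value in KO was that of Ifit2, at 0.34, with -0.17 in WT. Isg15 was at 0.25 in KO and -0.02 in WT, and Mx1 at 0.27 and 0.02. At the low end Oas2 was at -0.17 in KO and 0.10 in WT.

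The difference between the XCL1 values, KO minus WT, equals the change in the genotype gap when XCL1 was added. It was above 0 for 25 of the 33 genes, where 52.2% of all genes and 54.2% of the bright genes were, with a median of 0.07 and a range from -0.27 for Oas2 to 0.51 for Ifit2. No gene of the set reached 1.5-fold, where 1.52% of all genes were higher and 1.38% lower. Of the bright genes only 0.388% were higher and 0.194% lower, so a count of 0 is near that background. Pearson's r between the XCL1 differences in KO and WT over the 33 genes was 0.505, and Spearman's rho was 0.026, and without Bst2 r was -0.166. Of the interferon genes, 3 of 8 were above 0 with XCL1 in KO and 1 of 8 in WT. Ifna4 was lower in KO (-1.08, with -0.46 in WT), and so was Ifna7 (-0.74, with -0.42 in WT).

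**Figure D5:**
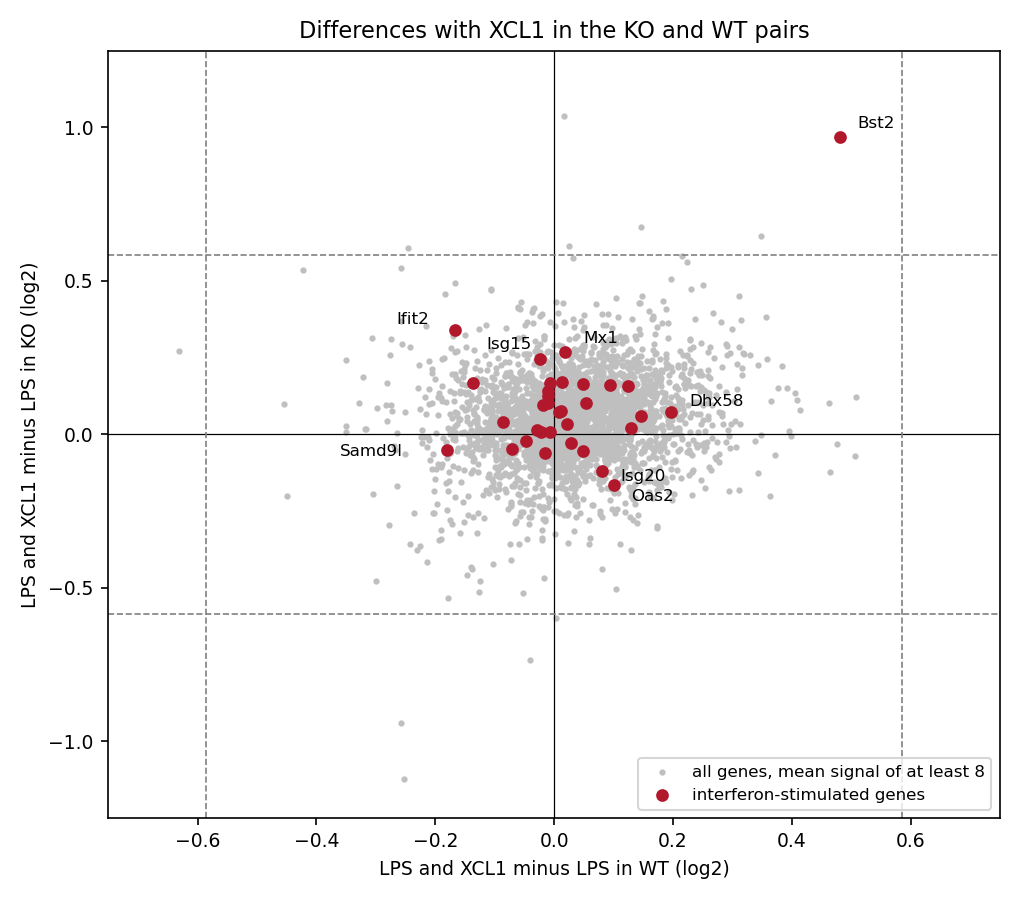
LPS and XCL1 minus LPS in KO (y axis) against the same in WT (x axis), as log2 differences between single arrays, for the 33 interferon-stimulated genes and the 3094 genes with a mean signal of at least 8, with dashed lines at 1.5-fold. Bst2 stands apart at 0.97 in KO and 0.48 in WT, and the other 32 genes lie among the rest.

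Promoters of the set were read to see which share the ISRE. RefSeq promoter windows (GRCm38.p6, 250 bases before to 50 after the start) were available for 27 of the 36 genes. The letters GAAANNGAAA, or TTTCNNTTTC on the other strand, occurred in a window of 13 of these 27 genes (48.1%) and in 3.99% of all 27025 genes in the table. Of all 32851 windows, 3.44% held them. The palindrome TTCNNNGAA, which STAT dimers can bind, occurred in 6 of the 27 genes (22.2%) and in 9.55% of all genes. A match is a string of letters and not a measured site.

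The windows of 5 genes are shown, since the results turn on these genes or they show the motif most plainly, with ISRE matches in capitals and overlapping matches run together. Ifit1 and Isg15 hold several matches, and Rsad2 and Bst2 were called higher in KO with LPS and XCL1. Cmpk2, which had the largest difference, has no match in this window.
Ifit1, chr19:34640639-34640938, plus strand: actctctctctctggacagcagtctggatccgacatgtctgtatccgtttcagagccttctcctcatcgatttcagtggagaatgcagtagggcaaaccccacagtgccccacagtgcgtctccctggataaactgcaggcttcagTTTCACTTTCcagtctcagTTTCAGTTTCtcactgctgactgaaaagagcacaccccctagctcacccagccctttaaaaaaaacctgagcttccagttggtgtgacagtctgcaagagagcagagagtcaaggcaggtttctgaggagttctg
Isg15, chr4:156200769-156201068, minus strand: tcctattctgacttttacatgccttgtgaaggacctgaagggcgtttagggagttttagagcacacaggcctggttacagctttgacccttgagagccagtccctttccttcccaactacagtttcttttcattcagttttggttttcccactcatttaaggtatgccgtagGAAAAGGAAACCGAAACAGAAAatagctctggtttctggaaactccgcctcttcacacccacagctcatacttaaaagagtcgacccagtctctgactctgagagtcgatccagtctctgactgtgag
Rsad2, chr12:26456403-26456702, minus strand: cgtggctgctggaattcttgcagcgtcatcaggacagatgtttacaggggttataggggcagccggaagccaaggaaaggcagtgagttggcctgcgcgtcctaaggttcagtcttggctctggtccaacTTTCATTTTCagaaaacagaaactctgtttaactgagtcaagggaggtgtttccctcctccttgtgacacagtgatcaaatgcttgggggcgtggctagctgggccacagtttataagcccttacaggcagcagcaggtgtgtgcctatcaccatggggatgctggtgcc
Bst2, chr8:71537423-71537722, minus strand: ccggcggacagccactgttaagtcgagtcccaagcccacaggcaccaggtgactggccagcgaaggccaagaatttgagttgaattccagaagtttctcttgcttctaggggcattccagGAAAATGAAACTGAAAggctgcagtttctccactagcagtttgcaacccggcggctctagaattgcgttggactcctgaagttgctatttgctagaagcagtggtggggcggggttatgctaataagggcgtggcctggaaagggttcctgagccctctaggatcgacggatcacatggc
Cmpk2, chr12:26468965-26469264, plus strand: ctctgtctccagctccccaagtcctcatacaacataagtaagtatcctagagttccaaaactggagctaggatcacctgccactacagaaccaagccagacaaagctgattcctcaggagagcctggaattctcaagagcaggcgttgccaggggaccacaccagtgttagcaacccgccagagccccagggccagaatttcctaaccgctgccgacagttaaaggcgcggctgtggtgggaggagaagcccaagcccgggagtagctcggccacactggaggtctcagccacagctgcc

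In Ifit1 the matches begin 104 and 85 bases before the start, and in Isg15 3 overlapping matches begin 78, 72 and 66 bases before it. The match of Rsad2 begins 120 bases before the start, and those of Bst2 130 and 124 bases before it. The 12 measured genes with a match had medians of 0.43 and 0.32 in KO minus WT, with 2 and 0 of them higher. The 12 with a window but no match had medians of 0.28 and 0.24, with 2 and 2 higher, and Cmpk2 was one of these. The other 9 measured genes, Mx1 and Mx2 among them, had no window. Their medians were 0.26 and 0.35, with 2 and 1 higher. The ranges overlapped, running from 0.25 to 0.88 with a match and from 0.09 to 0.92 without in the pair with LPS and XCL1. Several genes of the set lie beside each other, with Ifit2, Ifit3 and Ifit1 on chromosome 19, Oas2 and Oas3 and also Oasl2 and Oasl1 on chromosome 5, Mx1 and Mx2 on chromosome 16, and Rsad2 within 12665 bases of Cmpk2. Neighbours need not be independent of each other.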

How the data were processed

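Total RNA was extracted with TRIzol and biotin-labelled sense cDNA was hybridised to mouse gene arrays, per the labels' protocols. The deposited values are log2 signals per probe set, summarised by the authors with RMA per the labels' descriptions. The sources used here give neither software nor annotation build. RMA equalises arrays, so a shift of most genes cannot be seen. Array medians were 5.44, 5.44, 5.40 and 5.43 (KO with LPS and XCL1, KO with LPS, WT with LPS and XCL1, WT with LPS). The members, the gene lists and the alternatives were chosen with earlier results of these data known.

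Of 41345 probe sets, 23521 had 1 gene symbol and 1814 several in the array annotation, and 16010 were unnamed here. The 37 probe sets that list a gene of the set alone all matched the RefSeq table (GRCm38.p6) by gene ID. Left out were probe sets with more than 1 symbol and those of olfactory receptors, antigen receptor segments, small RNAs and predicted genes. A gene was read by its probe set with the highest mean. Without detection flags, the signal limit is no measured background. Differences are between single arrays, with no test. Genes were named by rule, and the rule covered every gene of the set. Values on all 4 arrays were given for those at 1.5-fold in any pair. They were also given for the 10 with the largest and the 4 with the smallest mean genotype difference. The rule allowed up to 4 genes of each other list, and Xcr1, Xist, Ifnb1, Ifnar1, Ifnar2 and the Y-linked genes besides. Further genes named from those lists, such as Ly96, Ifna7 and Klk1, were chosen after values were seen. Values on all arrays for other genes, the count of genes above a mean signal of 8, and the windows printed were chosen after values were seen. Counting was tested on simulated data, where high recovery was required only for a change above 2-fold. That check gives no assurance for genes near the 1.5-fold threshold. Alternatives were a 2-fold threshold, no limit and a stricter limit on signal (6.91), raising dim signals to the limit, cyclic loess (limma 3.58.1, span 0.7, 3 iterations), centring on the gene median, the mean of probe sets, and keeping every named probe set. Python 3.11.15 and R 4.3.3 were used.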

Additional observations from a re-analysis of the deposited data

How the results depend on the processing

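Under 7 alternatives the log2 differences of the 33 genes were recomputed, and in all 5 comparisons each stayed within the SD between probe sets of its reported value. Most of these alternatives could not have given another outcome. All 33 genes lie above the signal limit on every array, so changing the limit or raising dim signals leaves their differences as they are. Centring adds a constant smaller than that SD, and averaging alters only genes with several probe sets. Cyclic loess could move every gene. Each gene stayed above 0 in both genotype pairs under all 7 alternatives, except Ifi35 with LPS and XCL1 (-0.05) where probe sets were averaged and the shared probe set of Oas1a where all were kept. Counts moved as follows. At 2-fold, 0 genes of the set were higher with LPS and XCL1, 1 (Cmpk2) with LPS, 0 in both genotype pairs, and 0 with XCL1 in KO. Centring each array on its gene median adds 0.105 to every difference in KO minus WT with LPS and XCL1, 0.101 with LPS, and -0.066 and -0.07 to the XCL1 differences in KO and WT. With it 9 genes rather than 6 were higher with LPS and XCL1, 5 rather than 3 with LPS and 4 rather than 2 in both pairs. With XCL1, 18 rather than 25 were then above 0 in KO (19 under cyclic loess) and 8 rather than 17 in WT. It turned the split of all genes with LPS and XCL1 into 338 higher and 91 lower in KO (184 and 199 without it), and that with LPS into 201 and 52 (111 and 111 without it). Both KO arrays then lay above both WT arrays for 32 genes of the set (31 without it) and for 3911 of all genes (2086 without it). No paired analysis was possible because each group has 1 array and the labels give no replicate numbers, and no array could be left out.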

Other observations

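Close relatives of the set's genes, chosen after their values were seen, did not all move with them. Trim30c differed by 0.57 and 0.54 in KO minus WT with LPS and XCL1 and with LPS, and Trim30b by 0.36 and 0.30. Ifit1bl1, a relative of Ifit1, differed by 0.73 and 0.28. Ifit3b was at 0.14 and -0.41, and in KO its log2 signal was 6.69 with LPS and XCL1 and 5.87 with LPS (6.55 and 6.28 in WT). Trim30d was at 11.10 with LPS and XCL1 and 10.83 with LPS in KO, and at 9.79 and 10.43 in WT, so its XCL1 values were 0.27 in KO and -0.63 in WT. How far the probes of these copies read each other was not tested.

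Second probe sets gave a view of precision. The other 3 probe sets listed for Sp100 alone differed by 0.42, 0.30 and 0.36 in KO minus WT with LPS and XCL1, and by 0.18, 0.65 and 0.36 with LPS. A second, dimmer probe set of Ifi35 gave -0.24 and 0.18.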
